A study of Mus musculus with 12 samples.

Results

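The genes described here encode the subunits of the glutamate and GABA receptors, measured in the prefrontal cortex of mice given a viral vector for the transthyretin gene Ttr. They were chosen by symbol: Gria, Grik, Grid, Grin and Grm genes for glutamate receptors, and Gabra to Gabrr, Gabrd, Gabre, Gabrp, Gabrq and Gabbr genes for GABA receptors. Of 47 matching symbols, 45 had at least 10 counts summed over the 12 libraries, out of 55401 genes in the table and 24948 genes that reached the same sum. Gabrp, with 1 count, and Grm6, with 3 counts, fell below it. The 45 genes comprise 4 AMPA, 7 NMDA, 5 kainate and 2 delta receptor genes, 7 metabotropic glutamate receptor genes, 18 GABA-A receptor genes and 2 GABA-B receptor genes. No measured value other than that minimum count was used to choose them.

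Glutamate is the main excitatory transmitter of the cortex and GABA the main inhibitory one. AMPA, kainate and NMDA receptors are channels built from several subunits that admit cations when glutamate binds, and the subunit mix sets their kinetics, their calcium permeability and, for NMDA receptors, their block by magnesium. GABA-A receptors are chloride channels, most often built from alpha, beta and gamma subunits, with delta in place of gamma in many receptors outside synapses. Metabotropic glutamate receptors and the GABA-B receptor act through G proteins, the latter as an obligate pair of Gabbr1 and Gabbr2 products.

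The mice were C57BL/6J males of 14 weeks. An adeno-associated virus had been injected on both sides of the dorsomedial prefrontal cortex 4 weeks before, and each group holds 4 libraries. Controls received pAAV.1-CAG-GFP, which carries green fluorescent protein. The overexpression group received pAAV-CAG-GFP-P2A-Ttr-WPRE.bgH, in which the broadly active CAG promoter drives GFP joined to Ttr. The knockdown group received KD-Ttr-GFP, in which the U6 promoter drives a short hairpin RNA against Ttr (Ttr-shRNA-2) and CAG drives GFP, with a WPRE3 element. No group without virus was analysed here, so surgery, virus and GFP were shared by every library. The control vector came from Addgene and both Ttr vectors were custom made by a viral vector core, so the source of the vector cannot be told apart from the group.

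The stretch upstream of a gene's start is where its transcription is controlled, and upstream sequences of 5 subunit genes are printed here as examples, which do not stand for all genes at their levels. They are the 250 bases before a RefSeq start site on build GRCm38.p6, written 5′ to 3′ on the gene's own strand with each CG dinucleotide in capitals. Gabbr1 and Grin1 had the highest mean levels of the 45 transcripts. Gabra3 was abundant with no CG in this window, Grm2 is the subunit gene that went most closely with a striatal marker score, and Gabra6 was the least abundant.
Gabbr1 upstream sequence, chr17:37045716-37045965, plus strand: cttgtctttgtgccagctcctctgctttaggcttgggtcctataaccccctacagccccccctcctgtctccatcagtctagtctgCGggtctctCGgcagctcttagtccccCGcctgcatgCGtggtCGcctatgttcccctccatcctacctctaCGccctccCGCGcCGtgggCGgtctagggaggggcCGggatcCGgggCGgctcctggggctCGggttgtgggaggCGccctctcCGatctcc
Grin1 upstream sequence, chr2:25319188-25319437, minus strand: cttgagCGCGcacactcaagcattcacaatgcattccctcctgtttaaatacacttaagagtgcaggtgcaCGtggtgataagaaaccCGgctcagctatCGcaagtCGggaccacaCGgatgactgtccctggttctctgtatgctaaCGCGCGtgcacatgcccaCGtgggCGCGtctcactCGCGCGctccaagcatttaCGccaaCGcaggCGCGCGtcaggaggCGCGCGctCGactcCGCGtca
Gabra3 upstream sequence, chrX:72656920-72657169, minus strand: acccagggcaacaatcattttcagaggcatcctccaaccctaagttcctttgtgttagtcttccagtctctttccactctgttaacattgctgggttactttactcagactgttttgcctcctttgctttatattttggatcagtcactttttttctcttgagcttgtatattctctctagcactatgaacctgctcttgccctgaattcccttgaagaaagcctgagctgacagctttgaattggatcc
Grm2 upstream sequence, chr9:106656110-106656359, minus strand: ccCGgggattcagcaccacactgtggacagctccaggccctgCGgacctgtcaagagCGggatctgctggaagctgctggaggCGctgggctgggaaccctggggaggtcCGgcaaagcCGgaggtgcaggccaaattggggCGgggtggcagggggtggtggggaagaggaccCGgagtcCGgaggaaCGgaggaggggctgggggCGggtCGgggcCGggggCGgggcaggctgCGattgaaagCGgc
Gabra6 upstream sequence, chr11:42321073-42321322, minus strand: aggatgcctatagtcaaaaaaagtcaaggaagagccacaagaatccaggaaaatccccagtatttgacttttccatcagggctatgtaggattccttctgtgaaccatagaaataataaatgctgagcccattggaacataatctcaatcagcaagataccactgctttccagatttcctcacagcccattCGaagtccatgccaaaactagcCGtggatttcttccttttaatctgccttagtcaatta
The Gabbr1 window holds 16 CG, the Grin1 window 27, the Grm2 window 16, the Gabra6 window 2 and the Gabra3 window 0. RefSeq windows were matched for 30 of the 45 genes (37 windows, since some genes have several starts). Averaging over the windows of a gene with several, the median was 13 CG for the 23 genes with a mean of at least 1 TPM (the deposited transcript level, scaled for transcript length) and 3 CG for the 7 genes below it, against 6 CG over all 32851 windows of the table. The ranges overlapped widely, from 0 to 42 CG in the first set and from 1 to 21 CG in the second. At least 1 CG was found in 35 of the 37 windows and in 92.1% of all windows. The TATA motif TATAAA, searched on both strands, was found in at least 1 window of 3 of the 30 genes, Gabra3, Gabrb2 and Grin3b. It was in 12.4% of all windows of the table, which is a share of windows and not of genes. These counts describe letters in a window and were not set against any measured binding.

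Libraries held 19879629 to 37166146 counts. Ttr, the vector's target, stood at 94.2 to 639 CPM (counts scaled to one library size) in the overexpression libraries, 0.49 to 8.49 in control libraries and 0.15 to 1.86 in knockdown libraries, so the overexpression labels held, while the knockdown and control ranges overlapped (log2 fold change -1.41, SE 1.16, edgeR quasi-likelihood adjusted p = 0.936). By replicate, Ttr was 0.58, 8.49, 0.49 and 0.78 CPM in controls and 0.15, 1.86, 0.83 and 0.66 CPM with knockdown. The negative fold change therefore rests on control replicate 2, and these data do not show that the knockdown lowered Ttr. Markers of cortical excitatory neurons were abundant everywhere, with all 6 genes tested and a summed level of 4708 to 6247 CPM. Markers of striatal projection neurons, a cell type of the neighbouring striatum, differed widely within each group: the 9 genes summed to 294 to 1135 CPM in controls, 257 to 1449 CPM with overexpression and 243 to 1276 CPM with knockdown. The 12 markers of vessel wall and meninges summed to 300 to 423 CPM in the overexpression libraries, above the 219 to 280 CPM of controls and the 248 to 283 CPM of knockdown libraries. No gene of any of the 9 marker lists was at 0 in every library. In such bulk RNA, fewer cells of a type and less RNA per cell cannot be told apart.

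The GABA-B subunit Gabbr1 was the most abundant receptor subunit transcript in this tissue, and the GABA-A subunit Gabra6 was the least abundant of the 45. The obligatory NMDA subunit Grin1 followed Gabbr1 by mean TPM, but it exceeded the gene next in order in only 7 of 12 libraries. Since TPM is scaled for transcript length, levels of different genes can be compared. Of the 45 genes, 11 had a mean of at least 100 TPM, 24 lay between 10 and 100 TPM, 3 between 1 and 10 TPM and 7 below 1 TPM. The median over all 24948 genes with 10 or more counts was 5.60 TPM. The plot of the level of each gene in every library shows that the differences between genes far exceed those between groups.

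**Figure D1:**
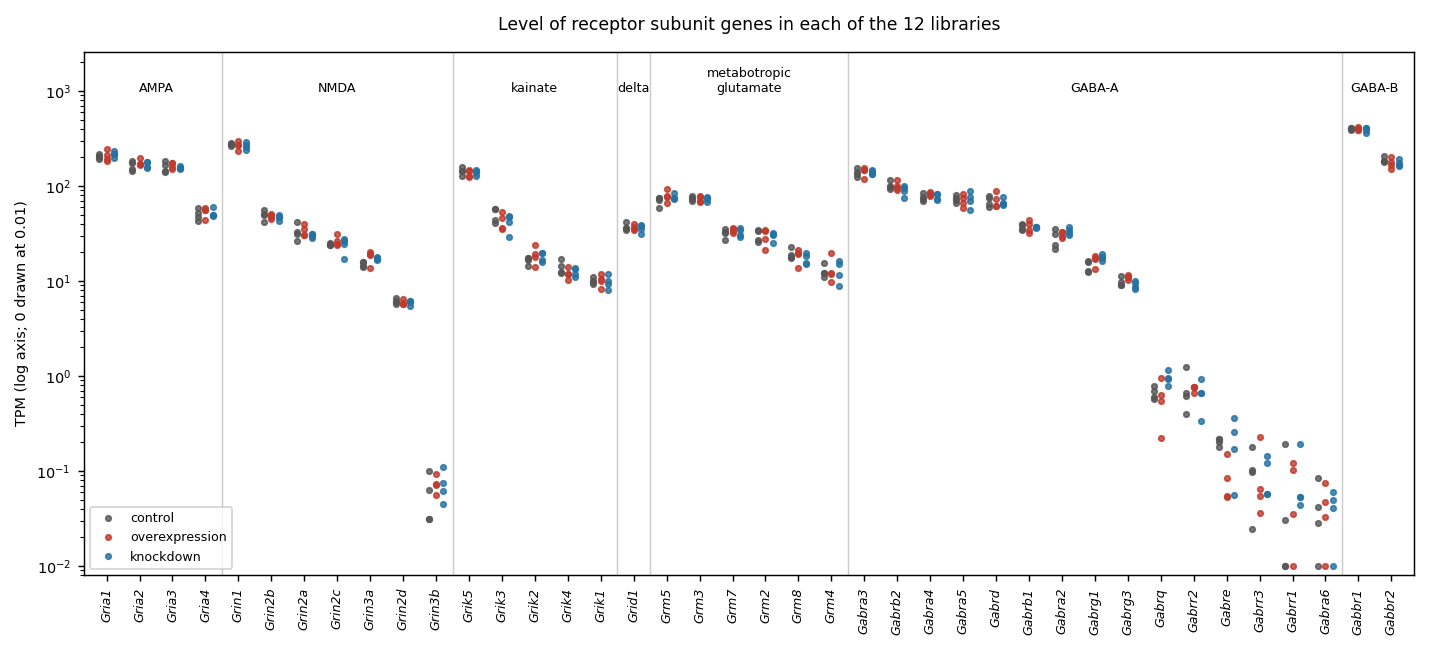
TPM (log axis) of 40 of the 45 receptor subunit genes in each of the 12 libraries, 1 point per library, coloured by group and ordered by mean within each family; a value of 0 is drawn at 0.01. The 3 groups overlap for nearly every gene, while means run from 398 TPM for Gabbr1 to 0.04 TPM for Gabra6.

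Gabbr1 (ENSMUSG00000024462), which carries the GABA binding site of the GABA-B receptor, stood at 399.5, 391.6, 408 and 408 TPM in controls, 414, 409, 388 and 391.8 TPM with overexpression and 413, 387, 404 and 364 TPM with knockdown. It exceeded the next gene, Grin1, in all 12 libraries, and its highest library was 1.14 times its lowest. Gabbr2, the partner that couples the pair to G proteins, had 179 ± 16.2 TPM (SD, n = 12), less than Gabbr1 in every library. Together the GABA-B genes summed to 578 ± 25.9 TPM.

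Grin1 (ENSMUSG00000026959), the subunit present in all NMDA receptors, averaged 269 ± 19.02 TPM and ranged from 235 to 300.03 TPM. The GluN2 subunits, which bind glutamate and set the receptor's kinetics, were lower, at 48.0 ± 3.88 TPM for Grin2b, 32.3 ± 4.58 for Grin2a, 24.9 ± 3.28 for Grin2c and 5.99 ± 0.33 for Grin2d. As shares of summed GluN2 TPM, Grin2b made up 43.2 ± 2.36%, Grin2a 29.0 ± 2.27%, Grin2c 22.4 ± 2.93% and Grin2d 5.42 ± 0.507%. Grin2b exceeded Grin2a, the subunit that rises during postnatal maturation of the cortex, in all 12 libraries. Grin3a, a glycine-binding subunit, had 16.7 ± 2.10 TPM, and its relative Grin3b only 0.07 TPM from 28 counts in all.

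Among AMPA subunits Gria1 led with 210 ± 18.2 TPM, followed by Gria2 with 169 ± 14.8, Gria3 with 160 ± 12.7 and Gria4 with 51.8 ± 5.84 TPM. Gria2, whose edited form makes the channel impermeable to calcium, held 28.7 ± 1.02% of AMPA TPM, with a range of only 26.9 to 29.9% over the libraries, while Gria1 held 35.5 ± 2.60%, Gria3 27.0 ± 1.37% and Gria4 8.77 ± 0.782%. Gria2 exceeded Gria3 in 11 of 12 libraries. AMPA genes summed to 590 ± 37.8 TPM and NMDA genes to 397 ± 21.5 TPM, a ratio of 1.49 ± 0.114.

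Kainate receptor transcripts were dominated by Grik5, a subunit that forms channels only together with another type, with 139 ± 10.5 TPM and 62.2 ± 2.12% of the kainate total. Grik3 followed with 44.6 ± 8.68 TPM, its highest library being 1.98 times its lowest. Grik2, Grik4 and Grik1 had 17.7, 12.8 and 9.98 TPM. Grid1, a delta receptor gene whose product takes part in synapse organisation, had 36.4 ± 2.74 TPM.

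GABA-A genes summed to 1098 ± 87.8 TPM, against 1212 ± 51.9 TPM for all ionotropic glutamate receptor genes, a ratio of 1.11 ± 0.076 with a range of 0.982 to 1.18. Among the alpha subunits, which shape GABA sensitivity and drug binding, Gabra3 held 23.7 ± 1.07% of alpha TPM, Gabra4 13.4 ± 0.876%, Gabra5 12.2 ± 1.48% and Gabra2 5.25 ± 0.868%. Of the beta subunits, which every common GABA-A receptor contains, Gabrb2 had 97.2 ± 11.4 TPM and Gabrb1 36.9 ± 3.19 TPM. Of the gamma subunits Gabrg1 had 16.2 ± 2.23 TPM and Gabrg3 9.92 ± 1.07 TPM. Gabrd, the subunit of many receptors outside synapses, had 69.6 ± 8.88 TPM.

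**Figure D2:**
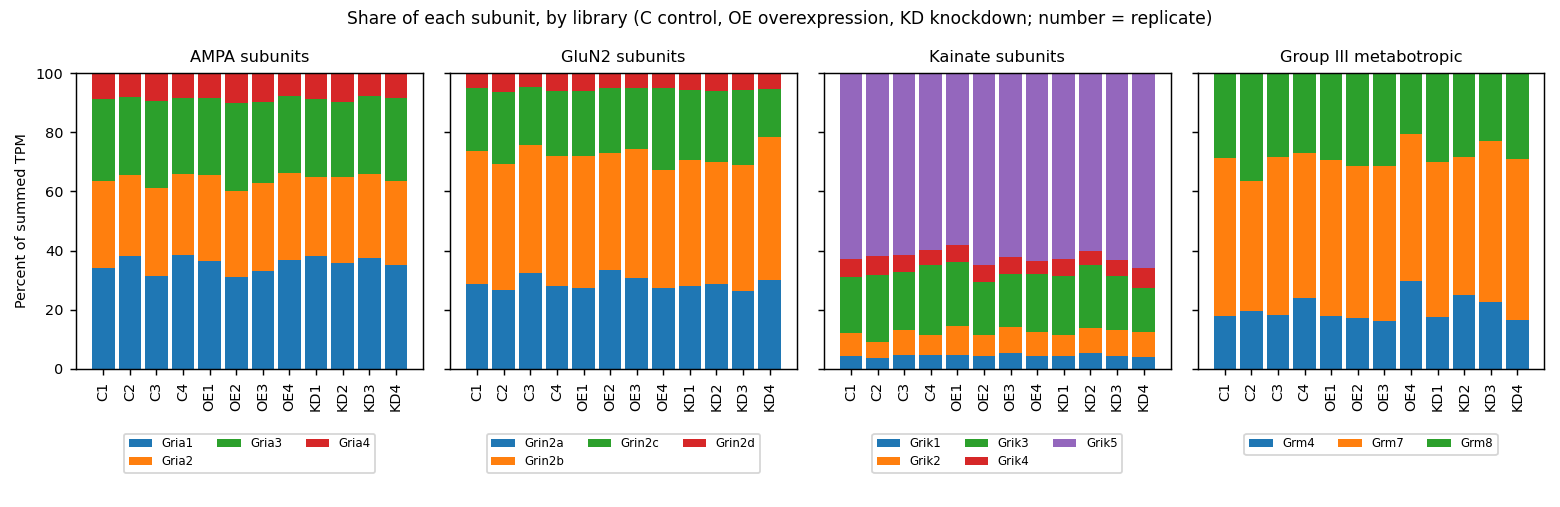
Share of each subunit in the summed TPM of its class (percent, bars stacked to 100) in each of the 12 libraries, for AMPA, GluN2, kainate and group III metabotropic subunits. Over the libraries Gria2 holds 26.9 to 29.9% of AMPA TPM and Grik5 58.2 to 65.8% of kainate TPM, while Grin2c ranges from 16.4 to 27.7% of GluN2 TPM, and Grm4 from 16.1 to 29.7% and Grm8 from 20.5 to 36.4% of group III TPM.

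The 7 genes below 1 TPM include subunits best known from retina, hypothalamus, brainstem or cerebellum. Gabrr2, Gabrr3 and Gabrr1, the rho subunits first described in retina, had means of 0.71, 0.10 and 0.07 TPM. Gabrq and Gabre, the theta and epsilon subunits, had 0.74 and 0.17 TPM, and Gabra6, the alpha subunit of cerebellar granule cells, 0.04 TPM. Gabra6 had 12 counts over all libraries, and it made up 0.0065% of alpha TPM. Gabra6, Gabre, Gabrr1, Gabrr3 and Grin3b, with 12, 94, 20, 56 and 28 counts, did not pass the expression filter of the test and take no part in the group comparisons, so 40 of the 45 genes were tested.

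Among metabotropic receptors Grm5 (75.1 ± 8.39 TPM) and Grm3 (73.5 ± 3.69 TPM) led and did not separate from one another, with Grm5 higher in 9 of 12 libraries. Grm5 is a group I receptor, a class that couples to phospholipase C. In group II, which lowers cyclic AMP, Grm3 held 71.3 ± 3.19% and Grm2, a receptor of glutamatergic axons, 28.7 ± 3.19%. In group III, mostly receptors of presynaptic terminals, Grm7 held 51.2 ± 3.31%, Grm8 28.6 ± 4.04% and Grm4 20.2 ± 4.20%. Gabra3 and Grik5, neighbours in the order of means at 139.7 and 139 TPM, were as close, with Gabra3 the higher in 6 of 12 libraries.

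Genes of GABA-A subunits lie in clusters, and members of a cluster differed greatly in level. On chromosome 11 (GRCm38, GENCODE annotation), Gabra6 (chr11:42306437-42321072) and Gabrb2 (chr11:42419757-42629028) are neighbours. Gabra6 had 0.04 TPM and Gabrb2 97.2 TPM. On the X chromosome Gabra3 (chrX:72432681-72656848), with 139.7 TPM, lies between Gabre (chrX:72255999-72274803) and Gabrq (chrX:72825178-72842602), both below 1 TPM. Another cluster, on chromosome 5, holds Gabrg1, Gabra2, Gabra4 and Gabrb1, with 16.2, 30.8, 78.5 and 36.9 TPM. Gabrg3 and Gabra5, neighbours on chromosome 7, had 9.92 and 71.9 TPM. Gabra4 and Gabrb1 start head to head and share 46 exonic bases on opposite strands. Exons of other genes cover more than 10% of the exonic bases of 2 members, Grin1 (13.5%, the antisense gene Grin1os) and Grin3b (32.1%, Tmem259 on the opposite strand). The strand setting of the counting is not known, so the counts of these 2 genes are less certain than the others, and 26 of the 45 genes share no exonic base with another gene.

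Raising Ttr changed no receptor subunit transcript past the threshold. Of the 40 tested genes, 0 passed an adjusted p of 0.05 for overexpression against control (edgeR quasi-likelihood test), where 0.00547% of all 18289 genes passed. None reached an unadjusted p of 0.05, against 6.26% of all genes, and none had ranges of 4 against 4 libraries that did not overlap, against 2.72% of all genes. The median log2 fold change of the 40 was -0.03, beside 0.0038 over all genes tested, with 15 positive and 25 negative. The 95% intervals of all 40 lay within a 2-fold change in either direction, and 37 lay within 1.5-fold. DESeq2, which called 39 genes in this comparison, called 0 of the subunit genes.

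The most abundant subunits were also measured most tightly. For overexpression over control the fold change of Gabbr1 was 0.964 (95% interval 0.898 to 1.03), that of Grin1 0.940 (0.841 to 1.05) and that of Gria1 0.973 (0.873 to 1.08). For knockdown over control the values were 0.973 for Gabbr1 (0.906 to 1.05), 0.954 for Grin1 (0.854 to 1.07) and 1.06 for Gria1 (0.947 to 1.18). Gabbr2 and Gria2 had 0.906 (0.787 to 1.04) and 1.04 (0.924 to 1.16) with overexpression, and 0.924 (0.802 to 1.06) and 1.02 (0.905 to 1.14) with knockdown. Each of these intervals includes no change, and each bounds a change in either direction at less than 1.5-fold.

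The smallest unadjusted p-values with overexpression belonged to kainate and NMDA subunits. Grik4, a kainate subunit that forms channels together with others, had 33.7, 41.4, 28.7 and 28.5 CPM in controls and 31.4, 27.8, 27.0 and 23.0 CPM with overexpression. The ranges overlap, and the log2 fold change was -0.27 (SE 0.133, adjusted p = 0.807). Grin3a had 48.2, 44.2, 46.7 and 41.2 CPM in controls and 57.3, 40.4, 54.5 and 54.6 CPM with overexpression, so 3 overexpression libraries lay above every control and the fourth below them all (log2 fold change 0.20, adjusted p = 0.819). Grik5 gave -0.13 (adjusted p = 0.839) and Grik3 -0.28 (adjusted p = 0.842). With the vessel wall and meninges score of each library as a covariate, the sign turned for Grin3a (-0.052), Grik5 (0.061) and Grik3 (0.27). That score ran from 0.24 to 0.99 in the overexpression libraries and from -0.81 to 0.01 in controls, and its part in these values cannot be told apart from the group.

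The knockdown virus gave no call either. For knockdown against control 0 of 40 genes passed (edgeR, adjusted), against 0.00547% of all genes, and DESeq2, which called 44 genes, called 0 of them. An unadjusted p of 0.05 was reached by 1 of the 40 genes, against 5.68% of all genes, and 2 of the 40 had ranges that did not overlap, against 4.11%. The median log2 fold change was -0.03 beside 0.0047 over all genes, with 16 positive and 24 negative. The intervals of 39 of 40 genes lay within 2-fold.

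Gabrg1 (ENSMUSG00000001260, chr5:70751047-70842617, minus strand), a gamma subunit, was the gene at an unadjusted p below 0.05. It had 30.98, 24.8, 30.0 and 23.3 CPM in controls and 31.01, 35.7, 32.7 and 35.5 CPM with knockdown. The lowest knockdown library lay just above the highest control. The log2 fold change was 0.30 (SE 0.103, fold 95% interval 1.06 to 1.44, edgeR adjusted p = 0.755). The overexpression libraries, at 33.1, 25.5, 32.0 and 31.6 CPM, fell across both ranges. Over the 24 alternatives the log2 value stayed between 0.21 and 0.37 and never passed.

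Gabrq, the other gene without overlap, was near the limit of detection, with 460 counts in all 12 libraries. It stood at 1.57, 1.40, 1.12 and 1.17 CPM in controls and 2.28, 1.78, 1.83 and 1.63 CPM with knockdown (log2 fold change 0.52, SE 0.301, adjusted p = 0.900). Grin3a was 51.1, 48.2, 51.0 and 57.0 CPM with knockdown, overlapping the controls only at 48.2 (log2 fold change 0.20, adjusted p = 0.897). Gabrb2, a beta subunit, had 162, 154, 183 and 152 CPM in controls and 151, 156, 136 and 124 CPM with knockdown (-0.20, adjusted p = 0.897). Gabra2, the alpha subunit of many synapses onto axon initial segments, gave 73.3, 51.7, 81.6 and 55.7 CPM in controls and 71.8, 72.4, 78.5 and 91.0 CPM with knockdown (0.25, adjusted p = 0.897). Ranges overlapped for these last 3 genes.

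**Figure D3:**
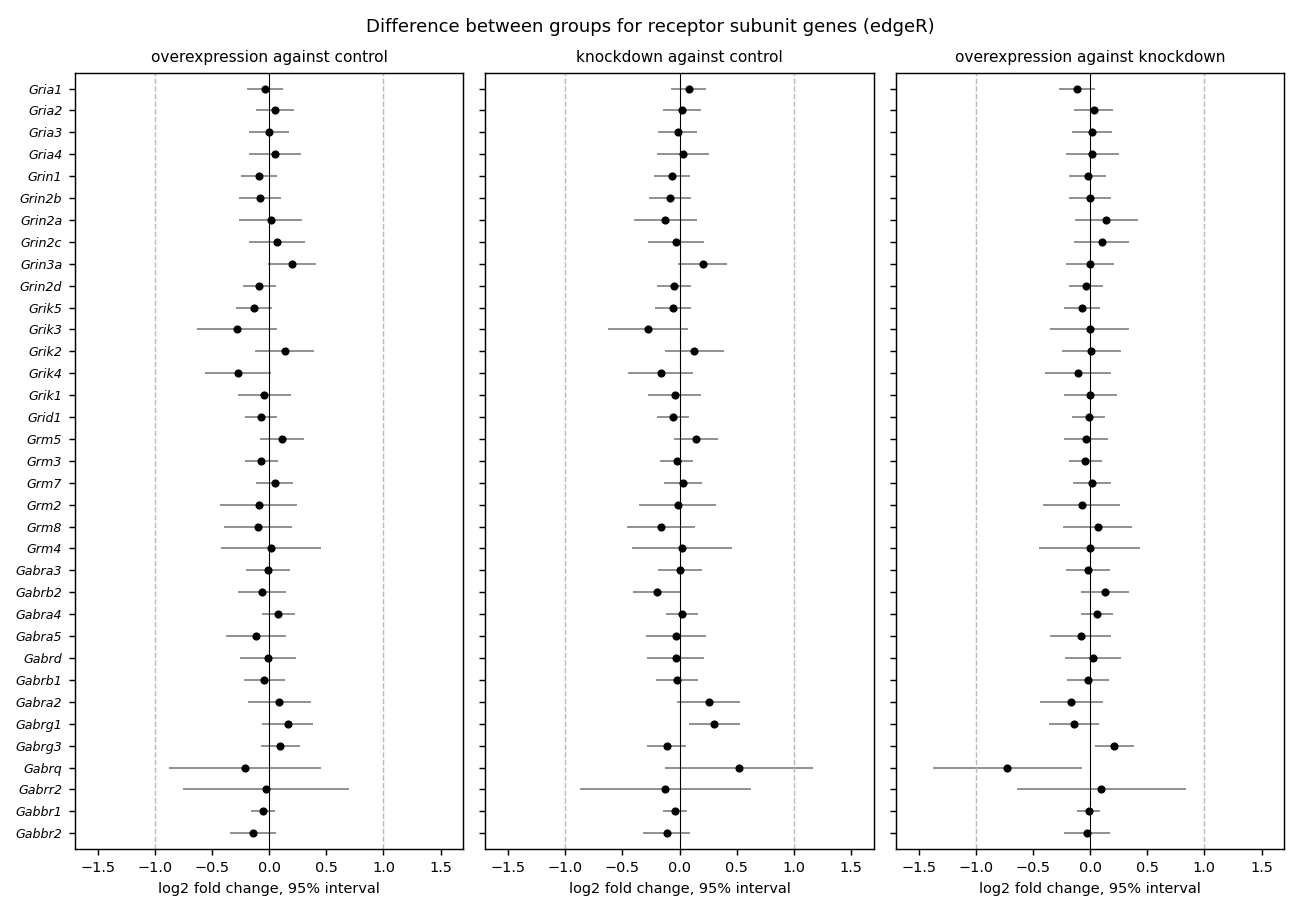
Log2 fold change (point) with its 95% interval (line) for 35 of the 40 tested subunit genes in the 3 comparisons, from edgeR; dashed lines mark a 2-fold change. Points lie near 0 for abundant subunits, and the widest intervals belong to Gabrq and Gabrr2, the least abundant genes tested.

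The direct comparison of overexpression with knockdown shares its libraries with both comparisons against control and also gave no call. Of the 40 genes 0 passed (edgeR, adjusted), against 0.00547% of all genes, and DESeq2, with 3 calls, called 0 of them. An unadjusted p of 0.05 was reached by 2 of 40, against 5.1% of all genes, and 1 had ranges that did not overlap, against 2.37%. The median log2 fold change was -0.00442, beside 0.0002 over all genes.

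Gabrg3 (ENSMUSG00000055026, chr7:56716465-57387188, minus strand), another gamma subunit, had 40.7, 44.4, 38.7 and 40.8 CPM with overexpression and 33.5, 36.3, 37.9 and 34.1 CPM with knockdown. All overexpression libraries lay above all knockdown libraries (log2 fold change 0.21, SE 0.0798, adjusted p = 0.967), while controls, at 35.8, 45.3, 37.6 and 35.1 CPM, spanned both. Gabrq had 1.80, 1.07, 0.43 and 1.20 CPM with overexpression, overlapping the knockdown libraries at its highest value (log2 fold change -0.73, adjusted p = 0.967). Gria1 followed (-0.12, adjusted p = 0.974). Tested for any difference among the 3 groups at once, 0 of 40 genes passed, against 0.0109% of all genes, the lowest adjusted p was 0.819, and 1 gene, Gabrg1, had an unadjusted p below 0.05.

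The balance between families did not separate the groups. Ionotropic glutamate over GABA-A TPM was 1.12, 1.18, 1.01 and 1.17 in controls, 1.17, 0.982, 1.02 and 1.17 with overexpression and 1.15, 1.02, 1.17 and 1.15 with knockdown. AMPA genes summed to 578 ± 41.2 TPM in controls, 601 ± 47.4 with overexpression and 592 ± 30.5 with knockdown (n = 4 each), and NMDA genes to 403 ± 14.2, 401 ± 26.2 and 388 ± 24.6. GABA-A genes summed to 1090.02 ± 107, 1129.6 ± 83.4 and 1073 ± 87.5 TPM. In each of these families the differences between group means were smaller than the largest SD within a group, and no test was run on the sums.

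Genes that work beside the receptors, in 4 lists of 64 genes, also held no call in any of the 3 comparisons (edgeR and DESeq2, 0 of 64). Unadjusted p-values below 0.05 numbered 3 of the 64 with overexpression, 6 with knockdown and 1 between the Ttr viruses, where 6.26, 5.68 and 5.1% of all genes tested were below that level. With overexpression they were Gsg1l, an AMPA receptor auxiliary subunit (129 ± 4.99 CPM in controls, 111 ± 5.38 with overexpression, n = 4, adjusted p = 0.746), Abat, which degrades GABA (240.2 ± 10.999 against 271 ± 29.3 CPM, adjusted p = 0.786), and Kctd12, a GABA-B receptor auxiliary subunit (81.8 ± 8.53 against 97.4 ± 13.0 CPM, adjusted p = 0.792). With knockdown the smallest were Abat (278 ± 15.1 CPM, adjusted p = 0.779), the scaffold Homer2 (82.0 ± 17.5 CPM in controls, 107 ± 15.7 with knockdown, adjusted p = 0.8288) and Kctd12 (101 ± 13.6 CPM, adjusted p = 0.8288). Between the Ttr viruses it was Cnih2, an AMPA receptor auxiliary subunit (147 ± 15.7 CPM with overexpression, 170.05 ± 20.4 with knockdown, adjusted p = 0.967), followed without reaching that level by the GABA transporter Slc6a11 (129 ± 10.2 against 145 ± 19.4 CPM).

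Some subunit levels varied with the cell type markers of the library. A score per library (mean centred log2 CPM of the 9 striatal markers) was fitted beside the 3 group means, a fit chosen after the data had been seen and repeated for 9 marker lists. The score comes from the same libraries as the subunit levels. It spanned -1.11 to 1.20 in controls, -1.41 to 1.57 with overexpression and -1.24 to 1.40 with knockdown, so every group held libraries at both ends. On it 1 of 40 genes passed, against 1.92% of all genes, and 14 of 40 had an unadjusted p below 0.05, against 16.8% of all genes.

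Grm2 (ENSMUSG00000023192, chr9:106643095-106656082, minus strand), the metabotropic receptor of glutamatergic axons whose upstream sequence is printed above, was that gene. It fell by 0.21 log2 units per unit of score (SE 0.0278, 95% interval -0.27 to -0.15, adjusted p = 0.00144). Its levels were 33.7, 25.6, 34.2 and 27.2 TPM in controls with striatal scores of -1.11, 0.31, -0.81 and 1.20. With overexpression they were 27.8, 34.2, 33.4 and 21.3 TPM at scores of 0.69, -1.41, -0.25 and 1.57, and with knockdown 31.5, 30.6, 24.9 and 32.3 TPM at -0.21, -0.13, 1.40 and -1.24. The overexpression and knockdown libraries with the highest score had the lowest Grm2 of their group, and the 2 controls with positive scores lay below the 2 with negative scores. Without the 2 libraries farthest from the median score the slope was -0.17 and no longer passed (adjusted p = 0.0644). Between groups its log2 fold change was -0.09 for overexpression against control and -0.02 for knockdown against control (adjusted p = 0.947 and 0.997), and in the plot against the striatal score the 3 groups lie along one band.

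**Figure D4:**
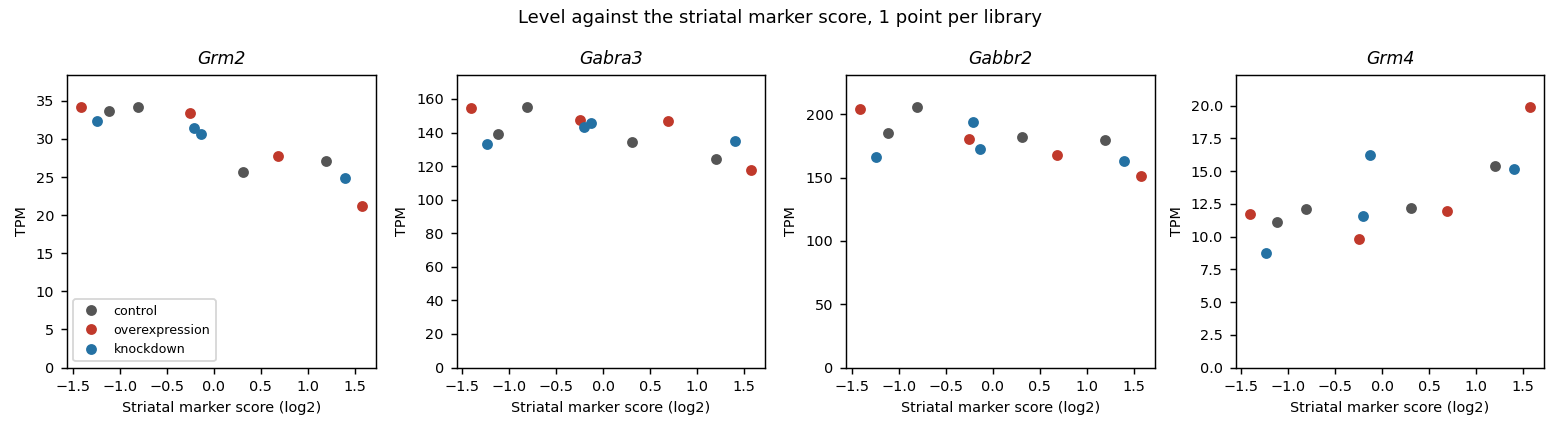
TPM of Grm2, Gabra3, Gabbr2 and Grm4 (vertical axes from 0) against the striatal marker score (log2) of the same library, 1 point per library, coloured by group. Grm2 falls from 34.2 TPM at the lowest score to 21.3 TPM at the highest.

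Next in order, and short of the threshold, came Gabra3 (-0.10, adjusted p = 0.0599), Gabbr2 (-0.10, adjusted p = 0.0728), Grin2a (-0.14, adjusted p = 0.0781) and, in the other direction, Grm4, a group III receptor (0.21, adjusted p = 0.0951). Grm4 also had the widest range of any subunit above 10 TPM, its highest library being 2.27 times its lowest. Grik3 had a slope of 0.16 (adjusted p = 0.160). With the striatal score as a covariate, the group comparisons still called 0 of 40 genes.

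The other 8 scores gave 1 more call. Grm8, a group III receptor, rose with the excitatory neuron score (1.64 log2 units per unit, SE 0.290, adjusted p = 0.0428, with 0.252% of all genes passing), a score whose whole span was only -0.30 to 0.16, and it no longer passed in 9 of 16 alternatives. Grm2, Gabra3, Gabbr2, Grin2a, Grm4 and Grik3 had excitatory slopes opposite in sign to their striatal ones. These slopes were 1.57, 0.90, 1.03, 0.72, -1.90 and -0.31, and none passed. The striatal and excitatory scores were not fitted together, so their parts in these slopes cannot be told apart. No member passed for interneurons (0.109% of all genes), astrocytes (0.0109%), oligodendrocyte precursors (0%), oligodendrocytes (1.57%), microglia (1.97%), vessel wall and meninges (0.0273%) or choroid plexus (0.0219%). At an unadjusted p below 0.05 these 7 lists had 6, 3, 8, 8, 4, 4 and 3 of the 40 genes, beside 9.5, 12.5, 10.8, 11.8, 10.5, 9.44 and 10% of all genes tested. Whether tissue makeup sets any of these slopes was not tested.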

How the data were processed

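Libraries were poly(A)-selected and directional, started from 500 ng of RNA and used adaptors with molecular identifiers (UMIs), per the labels' protocols. The authors deposited raw counts per gene, TPM (counts per transcript length, scaled to one total) and variance-stabilised values on a log2 scale. Per the submitters' processing notes, the build was GRCm38 (mm10) and the tools were featureCounts, DESeq2, UMI-tools and bcl2fastq 2.20.0.422. Not named were the aligner, annotation release, strand setting and use of the UMIs (not given in the sources used here). The length implied by the deposited TPM was within 1% of the longest GENCODE transcript for 78.3% of 13501 genes with at least 1000 counts and for 39 of the 45 subunit genes. Symbols were matched for 55141 of 55401 identifiers, and the other 260 held 0.00474% of counts.

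Counts were tested in edgeR 4.0.16 by quasi-likelihood (R 4.3.3, TMM factors, default expression filter by group) in 1 fit of all 12 libraries on 18289 genes, with Benjamini-Hochberg adjustment and a threshold of 0.05. CPM used the TMM factors. Levels and shares are deposited TPM, with mean and SD over libraries. Marker scores are mean centred log2 CPM (prior count 2). Upstream sequences come from RefSeq. The test was tried on simulated data with changes of 1.5-, 2- and 4-fold. For overexpression it found 50.9%, 83.6% and 97.1% of the 57, 73 and 69 genes changed (18110 genes, 7 false calls). For knockdown it found 55.2%, 71.0% and 94.0% of 67, 62 and 67 (18141 genes, 3 false calls). In the real data 1 gene was called in each of these comparisons. The adjusted threshold is easier to pass when more genes change, so these shares do not give the recovery in the real data.

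The genes and lists were chosen with earlier results of these data known. The text names Ttr, every subunit gene by its level, the 4 subunit genes with the smallest p and those without overlap in each comparison, those that failed the filter, and the 3 partner genes with the smallest p in each comparison; genes named for their slopes were chosen after their values were seen. Some genes that this rule names are not reported here. Alternatives covered scaling, filter, DESeq2 1.42.0, limma 3.58.1 (voom, TPM with a pseudocount of 0.1, variance-stabilised values), robust dispersions, separate fits for each pair of groups, the replicate block, marker covariates and each library left out. The labels do not say that each sample was its own mouse, so p-values measure the spread between samples, which may be partly technical. No pair of libraries in a group agreed within sampling noise (chi-square per degree of freedom 5.37 to 28.3). Behaviour and vitamin B12 were not analysed here. Figures were made in matplotlib 3.10.9.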

Additional observations from a re-analysis of the deposited data

Results flagged for a closer look

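Single libraries stood apart from the other 3 of their group, by Dixon's criterion, in 6 of 126 groups of 4 examined (1 in 20 would do so by chance). Overexpression replicate 1 held 3 of them: Gria2 at 196 TPM (others 167 to 171), summed AMPA subunits at 671 TPM (others 572 to 584) and Gabrr2 at 0.67 TPM (others 0.76 to 0.77). Overexpression replicate 4 had the low value of Gria4, 43.9 TPM (others 56.2 to 58.6), and also the highest striatal marker score. Knockdown replicate 2 was high for Gria4, 59.4 TPM (others 47.8 to 49.4). Knockdown replicate 4 was low for Grin2d, 5.41 TPM (others 6.06 to 6.12). Grin2d departs by a small amount from 3 libraries that lay close together.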

How the results depend on the processing

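The count of 0 subunit genes and 0 partner genes called held in each of the 3 comparisons over all 24 alternatives run, and the 3-group test called 0 subunit genes in its 23. Among the named subunit genes, 3 values for overexpression against control changed sign, all with the vessel wall and meninges score as covariate: Grin3a to -0.052, Grik5 to 0.061 and Grik3 to 0.27. The cause was not tested. Replicate numbers did not pair the libraries (correlations of -0.34 to 0.16 between same-numbered libraries, 2 of 12 over 0.1, 1 library closest to its own number), and with the replicate block 0 subunit genes were called, with 1, 0 and 2 genes called over the whole table.

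The marker score fits and the length alternative were chosen after seeing the data. Without the 2 libraries farthest from the median score the Grm2 slope was -0.17 with 0 subunit genes called, and leaving out single libraries gave 1 to 5 genes called on the striatal score (2 without overexpression replicate 1, 5 without knockdown replicate 4). The Grm8 slope on the excitatory score was 1.48 with library size scaling and 1.19 without the 2 farthest libraries, with 0 genes called in both, and ran from 1.48 to 1.78 with 0 to 1 genes called as single libraries were left out. It no longer passed without control replicate 3 or 4, overexpression replicate 2, 3 or 4, or knockdown replicate 1 or 3.

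With the length of all exons joined in place of the longest transcript, shares moved to 44.3% for Gria1, 26.0% for Gria2, 25.8% for Grin2a, 45.7% for Grin2b and 57.5% for Grik5, because a longer assumed length lowers a gene's level. Depth limits the 7 genes below 1 TPM, with 12 to 460 counts over all libraries. Simulated 1.5-fold changes were found in 50.9% of genes for overexpression and 55.2% for knockdown, with smaller changes not simulated. The simulated data held many more changed genes than were called in the real data, which eases the adjusted threshold. A 1.5-fold change could therefore be missed more often in the real data than these shares give.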
